A study of Mus musculus with 27 samples.

Results

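MHC class II presentation genes were followed in 3 myeloid populations of the inflamed colon (monocytes, macrophages and cDC1s, the type 1 conventional dendritic cells) and in CD4 T cells of the spleen, each from WT and from Mbd2-/- mice. The 9 genes were H2-Aa, H2-Ab1, H2-Eb1, Cd74, H2-DMa, H2-DMb1, H2-DMb2, H2-Oa and H2-Ob, out of 30869 gene symbols on the array, and were found by an exact match to the symbol column of the deposited intensity table. They were read by 16 of its 45281 probes. The arrays were Illumina MouseWG-6 BeadChips, single-colour arrays that report each probe as the brightness of its beads. Mbd2-/- mice lack Mbd2, a protein that binds methylated CpG sites, in every cell from birth, and both genotypes were on the C57BL/6 background. Colon cells of both genotypes came from mice given 2% DSS (dextran sodium sulfate), an agent that damages the gut lining, so no colon array is from an untreated colon. Each genotype had 5 monocyte arrays and 5 macrophage arrays, cDC1s had 2 WT and 3 Mbd2-/- arrays, and the T cells, taken 6 weeks after T cells were transferred in a colitis model, had 1 array per genotype. Each replicate may pool several mice, and age and the host of the transferred cells are not given for single arrays. Macrophages were sorted as positive for surface MHC-II protein and F4/80, whereas the gates given for monocytes (CD11b+ Ly6C+) and cDC1s (CD11b- CD11c+ CD103+) do not require it.

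MHC class II molecules display peptides from endocytosed protein to CD4 T cells. An α chain (H2-Aa) and a β chain (H2-Ab1) form the molecule I-A, and H2-Eb1 encodes the β chain of I-E, whose α chain is not made in C57BL/6 mice. The invariant chain Cd74 occupies the groove and guides new molecules to the endosome. There H2-DM, built from H2-DMa and either H2-DMb1 or H2-DMb2, exchanges the last invariant chain fragment for peptide, and H2-O, built from H2-Oa and H2-Ob, restrains H2-DM. The genes other than Cd74 lie within the major histocompatibility complex on chromosome 17, between 34092379 (the start of H2-Oa) and 34316674 (the end of H2-Eb1) in GRCm38.p6. Transcription of these genes depends on the coactivator Ciita, which acts through factors bound at conserved X and Y boxes in their promoters. In the colon, monocytes that mature into macrophages are known to gain surface MHC class II, and cDC1s present antigen to T cells.

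Promoter sequence is shown because these genes are known to share their promoter boxes while, in the arrays, only some of them differed between cell types. RefSeq promoter windows of assembly GRCm38.p6, which run from 250 bases before to 50 after the annotated start, were found for 7 of the 9 genes, with none for H2-Ab1 or Cd74. The Y box letters GATTGG (which contain the core ATTGG) and the X box core AGCAAC were searched on both strands. Of 32851 windows in the whole table, 16.1% held GATTGG and 14.8% held AGCAAC. The shorter ATTGG was in 37.4% and the longer AGCAACNG in 5.14%. Within the stretches below, capitals mark GATTGG and AGCAAC and each stretch ends with GATTGG, read 5′ to 3′ on the strand of the gene.
H2-Aa, chr17:34287867-34287908, minus strand: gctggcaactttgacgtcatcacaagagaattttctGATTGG
H2-Eb1, chr17:34305771-34305812, plus strand: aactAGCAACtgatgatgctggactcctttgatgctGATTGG
H2-DMb1, chr17:34153093-34153134, plus strand: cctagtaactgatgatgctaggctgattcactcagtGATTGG
H2-DMb2, chr17:34145122-34145163, plus strand: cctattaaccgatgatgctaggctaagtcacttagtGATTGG
H2-Oa, chr17:34092299-34092340, plus strand: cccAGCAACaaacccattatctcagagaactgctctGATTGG
H2-Ob, chr17:34238811-34238852, plus strand: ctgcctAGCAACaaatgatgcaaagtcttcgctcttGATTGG
GATTGG began at position -44 (H2-Oa) to -91 (H2-DMb2) from the start in these 6 genes, and H2-DMa held it only at -199 in the second of its 2 windows. AGCAAC stood 26 bases upstream of GATTGG in H2-Eb1, 27 in H2-Oa and 24 in H2-Ob. H2-Oa and H2-Ob, which were higher in cDC1s, and H2-Eb1, which did not pass there, all held this pair of motifs. The array probes read the transcripts and not these promoters.

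**Figure D1:**
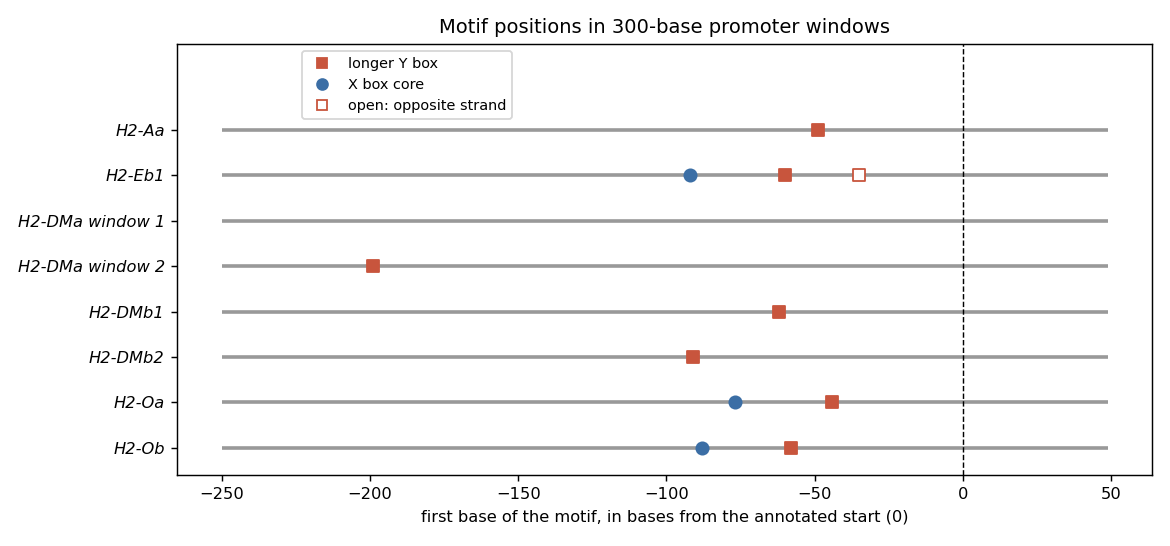
Position of the Y box letters (squares) and the X box core (circles) in the promoter windows of 7 genes, in bases from the annotated start, with open symbols for the opposite strand. GATTGG lies between -44 and -91 on the gene's own strand in 6 genes, and the X box core precedes it in H2-Eb1, H2-Oa and H2-Ob.

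The probe of Mbd2 itself was detected on 0 of the 25 colon arrays, WT arrays included, so that it checks no label. The cell type labels were checked against marker genes. Ly6c1 was highest in monocytes (12.27 in WT and 12.54 in Mbd2-/- on the log2 scale, against 8.44 to 9.59 elsewhere in the colon), Emr1, which encodes F4/80, was highest in macrophages (12.25 and 12.36), and Xcr1 and Clec9a, which mark cDC1s, were at 8.08 to 9.15 in cDC1s and at or below 4.64 elsewhere. Macrophage array 12 (WT) and macrophage array 20 (Mbd2-/-) stood apart from their groups, with 5.05% and 4.83% of 25553 probes at least 1 log2 unit from the median of the other arrays of the group, against 0.509% to 1.96% on the other monocyte and macrophage arrays. Arrays of Mbd2-/- cDC1s were dimmer than those of WT cDC1s before normalization (mean intensity 172 to 228 against 265 and 292). The columns of the table stand in sets of 6. WT cDC1s share sets with monocytes, 2 of the 3 Mbd2-/- cDC1 arrays share sets with macrophages, and the other shares none with a colon array. No set holds cDC1s of both genotypes, so that column position and genotype cannot be told apart in cDC1s, nor column position and cell type between macrophages and monocytes.

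Transcripts of the classical chains and Cd74 were among the brightest signals of every colon array, which limits what a normalized array can show of them. The brightest probe of H2-Ab1 was the brightest of all 45281 probes on 16 of 25 colon arrays and never below rank 7. H2-Eb1 had a median rank of 6 and Cd74 of 9, while H2-Aa had 194. After quantile normalization, which gives every array the same distribution, H2-Ab1 stood at the top value of 14.15 on all 5 Mbd2-/- macrophage arrays. A rise of H2-Ab1 could therefore not be seen on that scale. Dimmer probes of the same genes leave more room, apart from the third probe of H2-Ab1 in cDC1s, and their values between genotypes are given beside the results. H2-DMa, H2-DMb1 and H2-DMb2 had median ranks of 198, 247 and 400, H2-Oa of 3317 and H2-Ob of 7798. All 16 probes were detected on 25 of 25 colon arrays, apart from the dimmer probe of H2-DMb2, which was detected on 24.

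**Figure D2:**
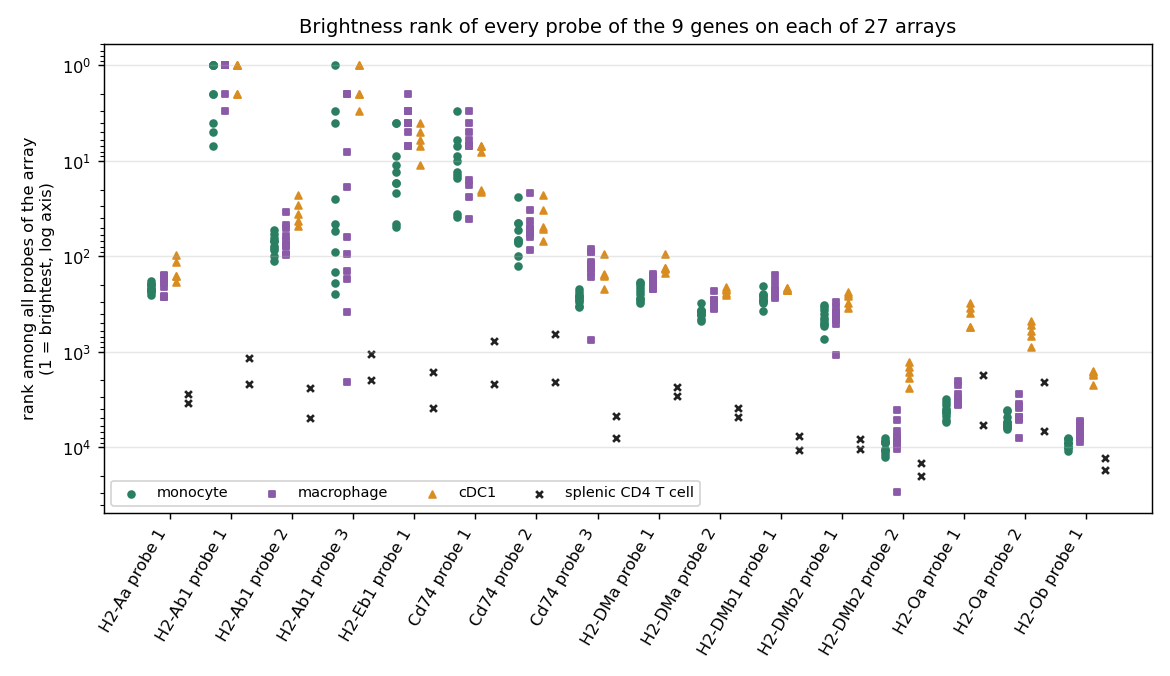
Rank of each of the 16 probes among all 45281 probes of an array, by raw intensity (log axis, 1 is brightest), with one symbol per array and a symbol shape for each cell type. Probe 1 of H2-Ab1 lies at ranks 1 to 7 on the colon arrays, and H2-Oa and H2-Ob lie nearer the top in cDC1s than in monocytes or macrophages.

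The first question was whether transcripts of these genes differed between Mbd2-/- and WT cells of the same type. None of the 9 genes passed in monocytes, macrophages or cDC1s, at a limma adjusted p under 0.05 by the brightest probe of each gene. Among all probes tested, 2.36% passed in monocytes, 7.11% in macrophages and 8.65% in cDC1s. At an unadjusted p under 0.05 there were 2 of 9 genes in monocytes (H2-Oa and H2-Ob), 1 in macrophages (H2-Ob) and 0 in cDC1s. The median log2 fold change of the 9 genes was 0.01 in monocytes, 0.05 in macrophages and -0.01 in cDC1s, against -0.02, -0.07 and 0.03 over all probes tested. These medians moved with the scaling: with median scaling the 9 genes had -0.18 in monocytes (-0.26 over all probes) and 0.10 in cDC1s (-0.37), and with cyclic loess 0.51 in cDC1s (0.01). Where a bulk sample differs, fewer cells of a type and less RNA per cell cannot be told apart. The labels do not say how the mice were divided among replicates, so that the p-values measure the spread between these arrays.

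**Figure D3:**
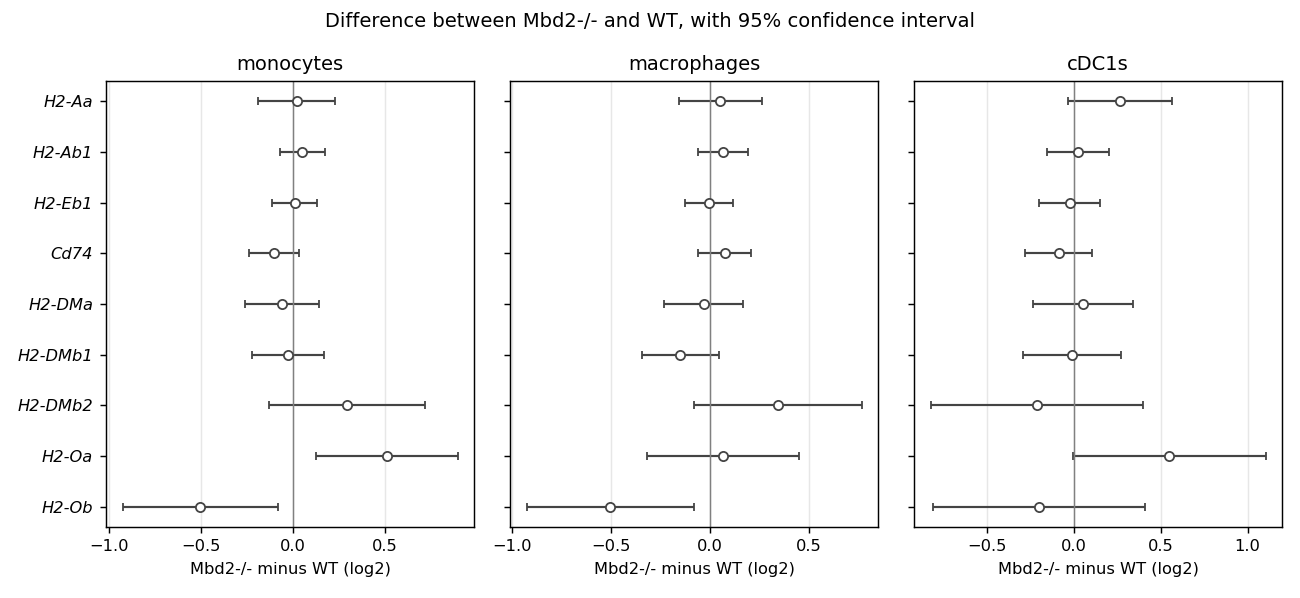
Difference between Mbd2-/- and WT in normalized log2 intensity for the brightest probe of each gene in 3 cell types, with 95% confidence intervals and open symbols for genes that did not pass. Intervals of the classical chains and Cd74 are narrow around 0 in monocytes and macrophages, while H2-Oa and H2-Ob lie on opposite sides of 0 in monocytes.

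After quantile normalization, H2-Aa and the brighter probes of H2-Ab1, the chains of I-A, had narrow intervals around 0 between genotypes in monocytes and macrophages. WT monocytes had H2-Aa at 12.73 ± 0.12 (SD, n = 5) and Mbd2-/- monocytes at 12.75 ± 0.07 (SD, n = 5), a log2 difference of 0.02 with a 95% interval of -0.19 to 0.23. H2-Ab1 differed by 0.05 there (-0.07 to 0.17), and by 0.06 in macrophages (-0.06 to 0.19). Its second probe, with a median rank of 69 and so with room to rise, was at 13.41 and 13.43 in monocytes and at 13.43 and 13.51 in macrophages. Its remaining probe had wide intervals, with differences of 0.43 in monocytes (-0.69 to 1.55) and 0.88 in macrophages (12.60 ± 1.63 in WT and 13.47 ± 0.80 in Mbd2-/-, SD, n = 5, adjusted p = 0.317). In macrophages H2-Aa differed by 0.05 (-0.16 to 0.26). With cyclic loess the macrophage differences were 0.19 for H2-Ab1 and 0.13 for H2-Aa, each with a standard error of 0.15. With median scaling the monocyte differences were -0.12 and -0.18. None of these passed. H2-Eb1, the I-E β chain, differed by 0.01 in monocytes (-0.12 to 0.13) and by -0.01 in macrophages (-0.13 to 0.12). Arrays of both genotypes overlapped for each of these genes in both cell types.

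Among cDC1s, H2-Aa was at 12.98 and 12.85 on the 2 WT arrays and at 13.00, 13.23 and 13.32 on the 3 Mbd2-/- arrays. The groups did not overlap, and the log2 difference of 0.27 (95% interval -0.04 to 0.57) did not pass (limma adjusted p = 0.257). With so few arrays, 31.8% of all probes tested in cDC1s did not overlap between genotypes, and among the 9 genes this was so for H2-Aa and H2-Oa. H2-Ab1 and H2-Eb1 differed by 0.02 (-0.16 to 0.20) and -0.03 (-0.20 to 0.15) in cDC1s. The second probe of H2-Ab1 was at 13.65 in WT and 13.64 in Mbd2-/- cDC1s, and its remaining probe at 14.09 and 14.05. That remaining probe ranked 1 to 3 on the cDC1 arrays and reached the top value of 14.15 in both genotypes, so it left little room for a rise. Values of the bright chains in cDC1s depended on the normalization: with cyclic loess the difference of H2-Ab1 became 0.57 (adjusted p = 0.115) that of H2-Eb1 0.60 (adjusted p = 0.133), that of H2-Aa 0.63 (adjusted p = 0.0804) and that of Cd74, described next, 0.51 (adjusted p = 0.172), and none passed.

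Cd74, the invariant chain, whose gene lies outside the complex on chromosome 18 (60803849 to 60812652 in GRCm38.p6), did not pass between genotypes on any of its 3 probes. By the brightest it differed by -0.10 in monocytes (95% interval -0.24 to 0.03), 0.07 in macrophages (-0.06 to 0.21) and -0.09 in cDC1s (-0.28 to 0.11), where median scaling gave 0.10 (adjusted p = 0.786). Its second probe differed by 0.05, -0.03 and 0.13 in the same order. Its least bright probe had 12.45 ± 0.15 for WT monocytes and 12.51 ± 0.17 for Mbd2-/- monocytes (SD, n = 5). In cDC1s that probe was at 13.17 ± 0.24 in WT (SD, n = 2) and 12.93 ± 0.18 in Mbd2-/- (SD, n = 3). On that probe WT macrophage array 12 was at 11.25, whereas the other 4 WT macrophage arrays lay between 13.05 and 13.23, and the difference in macrophages was 0.47 (-0.06 to 1.00, adjusted p = 0.256).

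Genes of the peptide exchanger H2-DM did not pass between genotypes in any cell type. H2-DMa differed by -0.06 in monocytes (95% interval -0.26 to 0.14), -0.03 in macrophages (-0.23 to 0.17) and 0.05 in cDC1s (-0.24 to 0.34). With cyclic loess its difference in cDC1s was 0.42 and passed (adjusted p = 0.036), the only one of the 9 genes to do so. H2-DMb1 differed by -0.03, -0.15 and -0.01 in the same order. H2-DMb2 had wider intervals, at 0.29 in monocytes (-0.13 to 0.71), 0.34 in macrophages (-0.08 to 0.76) and -0.22 in cDC1s (-0.83 to 0.40). On the dim second probe of H2-DMb2, Mbd2-/- macrophages were at 6.23 to 8.46 and WT macrophages at 4.32 to 7.26, which overlap, and the log2 difference of 1.12 did not pass (adjusted p = 0.138). It was 0.67 without WT macrophage array 12 and 0.36 without macrophage arrays 12 and 20 (adjusted p = 0.723).

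The chains of H2-O, the inhibitor of H2-DM, gave the smallest p-values of the 9 genes in monocytes, and they leaned opposite ways. H2-Oa in WT monocytes was at 7.97, 7.87, 8.17, 8.49 and 8.37 on arrays 1 to 5. In Mbd2-/- monocytes it was at 8.73, 8.99, 8.51, 8.31 and 8.87 on arrays 6 to 10. The ranges overlap between 8.31 and 8.49, and 4 of the 5 Mbd2-/- arrays lay above every WT array. The log2 difference was 0.51 (standard error 0.18, 95% interval 0.13 to 0.89, limma adjusted p = 0.162). On its dimmer probe the genotypes did not overlap, with 7.40 to 7.69 in WT and 7.84 to 8.46 in Mbd2-/-. The difference on that probe was 0.58 (adjusted p = 0.296). Of all probes tested in monocytes, 4.85% did not overlap. The dimmer probe passed under 2 of 15 alternative settings, the unadjusted p among them, and under none that left out 1 array. With median scaling, which moved the median of all probes to -0.26 in this comparison, the difference of H2-Oa was 0.20.

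H2-Ob in WT monocytes was at 6.40, 6.39, 6.67, 6.71 and 6.75 on arrays 1 to 5. In Mbd2-/- monocytes it was at 6.03, 6.09, 5.75, 6.12 and 6.41 in the order of arrays 7, 8, 9, 10 and 6. One Mbd2-/- array reached the lowest WT arrays and the others lay below them. The log2 difference was -0.51 (standard error 0.20, 95% interval -0.93 to -0.08, adjusted p = 0.214). In macrophages WT arrays 11 to 15 were at 7.89, 7.68, 6.87, 7.78 and 7.50. Mbd2-/- macrophages ran from 6.44 to 7.76, with a median of 7.05. These overlap, and the difference was again -0.51 (95% interval -0.93 to -0.08, adjusted p = 0.126). It passed when WT macrophage array 13 (-0.67, adjusted p = 0.0418) or Mbd2-/- macrophage array 16 (-0.69, adjusted p = 0.032) was left out, and fell to -0.32 (adjusted p = 0.528) when macrophage arrays 12 and 20 were both left out.

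B cells also express H2-O. In Mbd2-/- monocytes H2-Oa leaned up (0.51) and H2-Ob down (-0.51), and neither passed. Markers of B cells moved in the direction of H2-Ob. Their summed intensity above the negative controls ran from 466 to 915 on WT monocyte arrays and from 173 to 365 on Mbd2-/- monocyte arrays, with no overlap, and from 852 to 1860 against 401 to 1489 in macrophages. These sums were taken before normalization, and Mbd2-/- monocyte arrays had mean intensities of 235 to 314 against 246 to 353 in WT. Of the list, 9 of 10 genes are on the array. Cd79b, part of the B cell receptor, fell by 1.08 in Mbd2-/- monocytes (adjusted p = 0.0096) and by 0.76 in macrophages (adjusted p = 0.0415). It was 1 of 6 tested B cell markers to pass in monocytes and 1 of 7 in macrophages. Pax5, a defining B cell factor, was detected on 0 of the 25 arrays and Ms4a1 on 6. The part of B cells in the H2-Oa and H2-Ob values was not tested.

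No difference of the genotype effect between cell types passed for any of the 9 genes. The share of all probes that passed was 0.0372% for macrophages against monocytes, 1.65% for cDC1s against monocytes and 7.63% for cDC1s against macrophages. The smallest limma adjusted p among the genes was 0.647 (Cd74), 0.485 (H2-DMb2) and 0.357 (H2-DMb2) in the same order, 0 of 9 passed under any alternative setting, and 0 of 9 had an unadjusted p under 0.05 in each. For H2-Oa the effect was 0.44 lower in macrophages than in monocytes, at an interval of -0.99 to 0.10.

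The second question was how the same genes differed between cell types of one genotype. H2-Oa and H2-Ob were far higher in cDC1s than in monocytes or macrophages in both genotypes, and this was the largest difference of the brightest probes of the 9 genes. In WT, 4 of 9 genes were higher in cDC1s than in monocytes (H2-DMa, H2-DMb2, H2-Oa and H2-Ob) against 20% of all probes, and 3 were higher than in macrophages (H2-DMb2, H2-Oa and H2-Ob) against 20.2%. In Mbd2-/-, 4 were higher than in monocytes (H2-Aa, H2-DMa, H2-Oa and H2-Ob) against 25.6% of all probes, and the same 4 were higher than in macrophages against 24.9%. None was lower in cDC1s. These shares count probes while the members are counted as genes. Comparisons within a genotype share groups of arrays, so that they are not independent of each other.

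**Figure D4:**
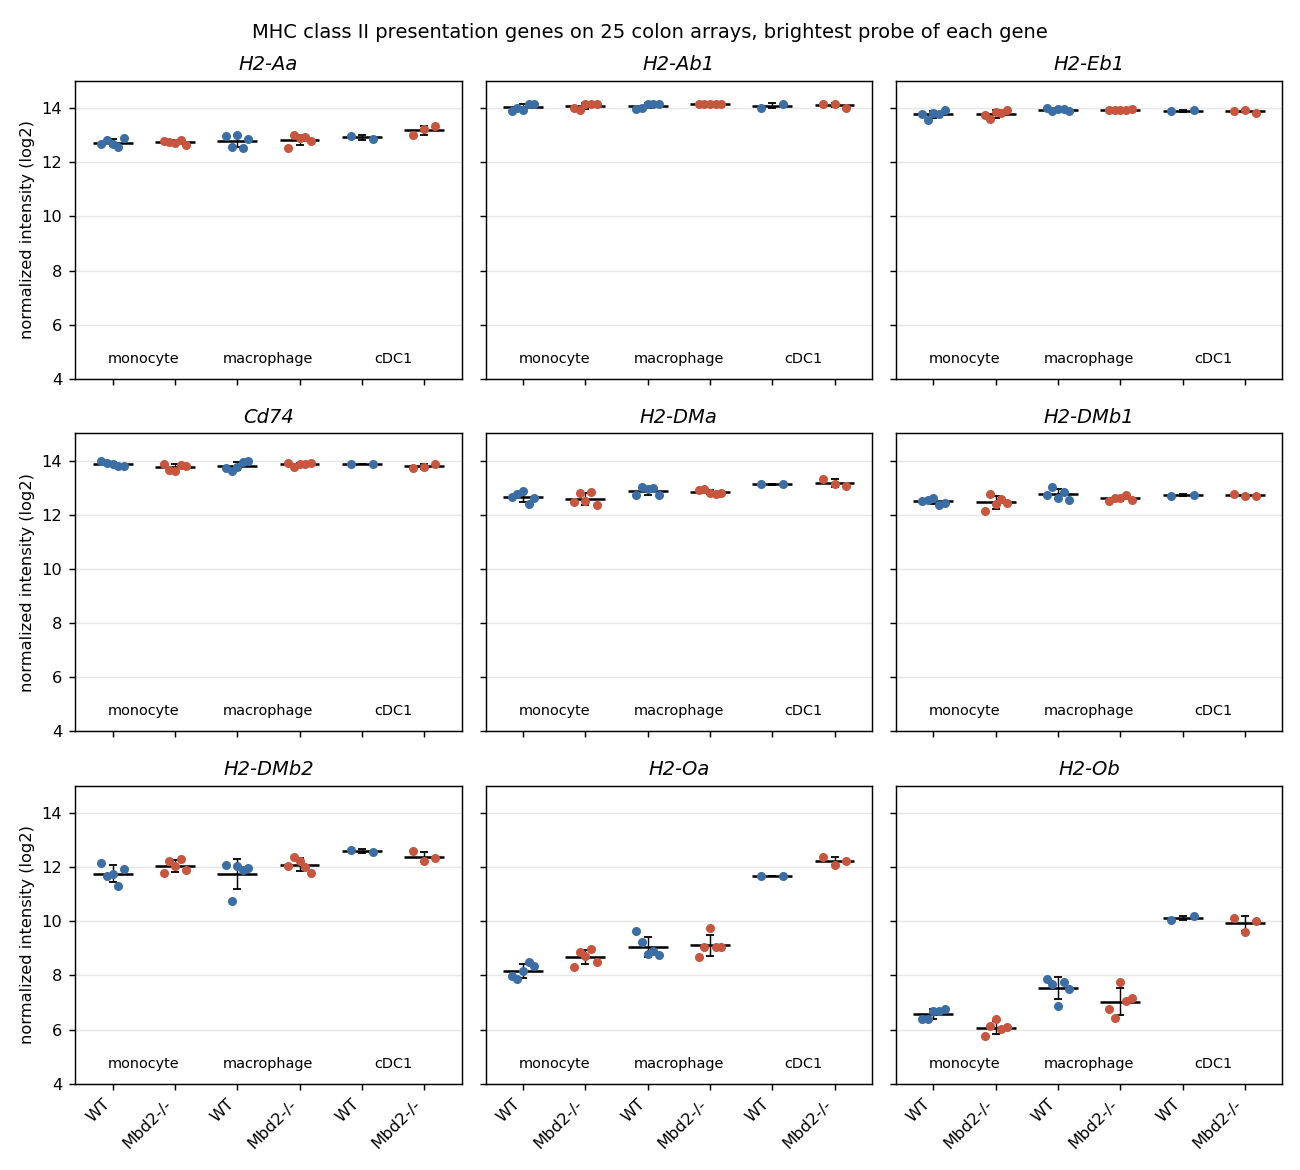
Normalized log2 intensity of the brightest probe of each gene on 25 colon arrays, with a dot per array, a bar at the group mean and whiskers of 1 SD (WT n = 5, 5 and 2, Mbd2-/- n = 5, 5 and 3 for monocytes, macrophages and cDC1s). H2-Oa and H2-Ob are low in monocytes, somewhat higher in macrophages and highest in cDC1s, while H2-Aa, H2-Ab1, H2-Eb1 and Cd74 are near the top everywhere.

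H2-Oa in cDC1s was at 11.67 and 11.66 on the 2 WT arrays and at 12.36, 12.06 and 12.21 on the 3 Mbd2-/- arrays, above every monocyte and macrophage array (7.87 to 9.76). Over WT monocytes this was a log2 difference of 3.49 (standard error 0.24, limma adjusted p = 2.31e-10), or 11.2-fold, and over WT macrophages 2.60 (adjusted p = 2.29e-08). In Mbd2-/- the differences were 3.53 over monocytes (adjusted p = 1.29e-11) and 3.09 over macrophages (adjusted p = 1.16e-10). Its second probe gave 3.63 and 3.22 in WT and 3.55 and 3.22 in Mbd2-/-. The groups did not overlap on either probe. Between genotypes, cDC1s differed by 0.55 (95% interval -0.01 to 1.10, adjusted p = 0.198), with the Mbd2-/- arrays above the WT arrays.

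H2-Ob followed the same order. It was at 10.06 and 10.18 in WT cDC1s and at 10.14, 9.61 and 10.01 in Mbd2-/- cDC1s, whereas the highest monocyte array was at 6.75 and the highest macrophage array at 7.89. The log2 difference was 3.54 over WT monocytes (standard error 0.27, adjusted p = 7.96e-10) and 2.58 over WT macrophages (adjusted p = 1.11e-07). In Mbd2-/- it was 3.84 over monocytes (adjusted p = 1.50e-11) and 2.88 over macrophages (adjusted p = 1.51e-09). With the column sets as a block, which could be fitted for WT cDC1s over monocytes and for Mbd2-/- cDC1s over macrophages, H2-Oa gave 3.47 and 3.08 and H2-Ob gave 3.51 and 2.87. The B cell marker Pax5 was detected on 0 of the 5 cDC1 arrays, and Ms4a1 on 1. Fcrla, another marker of the list, was at 9.72 and 9.58 in cDC1s and at 8.06 or less in the other colon groups. Of the B cell list, 1 of 8 tested was higher and 6 were lower in WT cDC1s than in macrophages. In Mbd2-/- 1 of 7 was higher and 5 were lower. Over monocytes 1 of 6 was higher and 3 were lower in WT, and 1 of 6 was higher and 1 was lower in Mbd2-/-. T cell markers were higher in cDC1s than in monocytes for 4 of 5 tested in both genotypes, and over macrophages for 3 of 6 in both, with 2 lower in WT and 1 in Mbd2-/-. Before normalization, their summed intensity above the negative controls ran from 572 to 3058 on WT cDC1 arrays and from 140 to 941 on the dimmer Mbd2-/- cDC1 arrays. On monocyte and macrophage arrays it ran from 162 to 727. On the splenic T cell arrays it was 24028 in WT and 14012 in Mbd2-/-, with 1 array each. With all 27 arrays normalized together, H2-Oa was at 7.68 and 9.99 there and H2-Ob at 4.59 and 5.21, lower than on any cDC1 array. The part of B cells and T cells in the cDC1 values of H2-Oa and H2-Ob was not tested. Over the 25 arrays H2-Oa and H2-Ob had a Pearson r of 0.94, and of 0.71 after group means were subtracted, as a description of arrays that share their cell types.

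**Figure D5:**
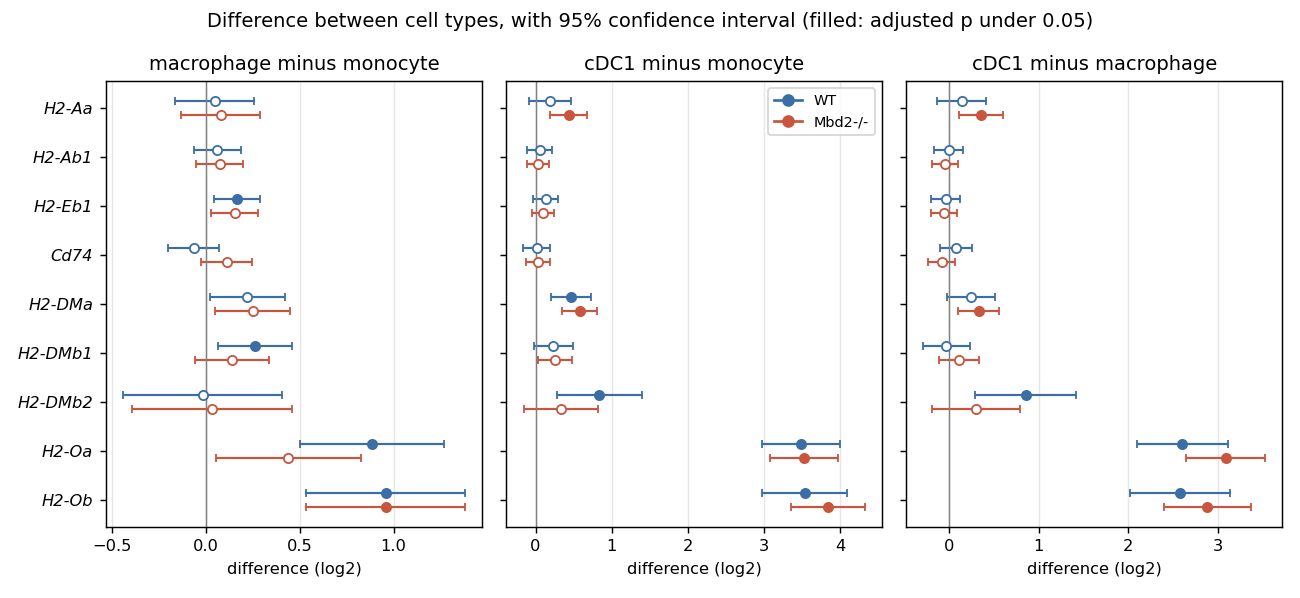
Differences between cell types in normalized log2 intensity for the brightest probe of each gene, in WT (blue) and Mbd2-/- (red), with 95% confidence intervals and filled symbols for an adjusted p under 0.05. In cDC1s H2-Oa and H2-Ob stand 2.58 to 3.84 above monocytes and macrophages, and the other genes stand at most 0.86 above them by these probes. The dim probe of H2-DMb2 is not drawn.

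Among the H2-DM genes, H2-DMa was 13.13 ± 0.01 (SD, n = 2) in WT cDC1s and 12.66 ± 0.17 (SD, n = 5) in WT monocytes, a log2 difference of 0.47 (adjusted p = 0.00574). In Mbd2-/- it was 0.58 higher than in monocytes (adjusted p = 1.71e-04) and 0.33 higher than in macrophages (adjusted p = 0.0185). The probes of H2-DMb2 disagreed in size. Its bright probe was 0.84 higher in WT cDC1s than in monocytes (adjusted p = 0.0174). Its dim probe was at 10.49 and 9.87 in WT cDC1s, 9.50 to 10.31 in Mbd2-/- cDC1s and 5.26 to 6.76 in monocytes, with no overlap, and was 4.23 higher in WT (adjusted p = 1.03e-05). In Mbd2-/- the dim probe was 3.75 higher than in monocytes (adjusted p = 5.07e-06), whereas the bright probe differed by 0.33 (adjusted p = 0.261). Over macrophages the dim probe was 4.07 higher in WT cDC1s (limma adjusted p = 1.74e-05) and 2.75 higher in Mbd2-/- cDC1s (adjusted p = 2.23e-04). H2-DMb2 and its neighbour H2-DMb1 are near-identical copies, and which transcripts each probe binds is uncertain, since probe sequences were not used here. With median scaling H2-DMa and H2-DMb2 no longer passed on their bright probes in any comparison of cDC1s with another cell type.

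H2-Aa was higher in Mbd2-/- cDC1s than in Mbd2-/- monocytes by 0.44 (adjusted p = 0.0036) and than in Mbd2-/- macrophages by 0.36 (adjusted p = 0.015). In WT the same differences were 0.19 (95% interval -0.09 to 0.47) and 0.14 (-0.14 to 0.42). With median scaling the Mbd2-/- differences were 0.16 (adjusted p = 0.434) and 0.08 (adjusted p = 0.698) and did not pass. That H2-Aa passed in Mbd2-/- only is not a difference between genotypes, since the test of that difference gave 0.25 (interval -0.12 to 0.61, adjusted p = 0.490). H2-Ab1, H2-Eb1 and Cd74 did not pass in cDC1s of either genotype by their brightest probes. The second probe of H2-Ab1, below the ceiling, was 0.24 higher in WT cDC1s than in monocytes (adjusted p = 0.0263) and 0.21 higher in Mbd2-/- (adjusted p = 0.0202). With cyclic loess these 3 genes were higher in Mbd2-/- cDC1s than in monocytes by 0.82 to 0.93 and passed there, while with median scaling they were within 0.18 of monocytes and none passed.

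Between macrophages and monocytes no gene differed by as much as 1 log2 unit on its brightest probe, although macrophages had been sorted on MHC-II protein. By the brightest probe, 4 of 9 genes were higher in WT macrophages (H2-Eb1, H2-DMb1, H2-Oa and H2-Ob) against 15.3% of all probes. In Mbd2-/- only H2-Ob passed by that probe, against 15.3%. Of all 16 probes, 5 passed in WT and 3 in Mbd2-/-. The dimmer probe of H2-DMa passed in both, with means of 12.04 in monocytes and 12.37 in macrophages of WT and 12.09 and 12.40 in Mbd2-/-. The least bright probe of Cd74 passed in Mbd2-/- (12.51 and 13.24), and lost its call in 8 of 10 fits that left out 1 array. H2-Oa in WT macrophages was at 9.62, 9.23, 8.79, 8.89 and 8.76 on arrays 11 to 15, above all WT monocyte arrays, a difference of 0.88 (standard error 0.18, adjusted p = 0.00117), whereas its second probe differed by 0.40 and did not pass (adjusted p = 0.291). In Mbd2-/- it was 0.44 (95% interval 0.06 to 0.82, adjusted p = 0.0801). H2-Ob was higher by 0.96 in WT (adjusted p = 0.00133) and by 0.96 in Mbd2-/- (adjusted p = 0.00108), and in both genotypes every macrophage array exceeded every monocyte array. B cell markers were also higher in macrophages, with 4 of 6 tested in WT and 5 of 6 in Mbd2-/-, and their part in H2-Ob was not tested. H2-Eb1 and H2-DMb1 rose by 0.17 (adjusted p = 0.0415) and 0.26 (adjusted p = 0.0447) in WT, and neither passed with median scaling. Cd74 and H2-Ab1 differed by -0.06 (-0.20 to 0.07) and 0.06 (-0.06 to 0.19) in WT.

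By level, H2-Oa and H2-Ob were ordered cDC1s, then macrophages, then monocytes in both genotypes, where the step from Mbd2-/- macrophages to monocytes did not pass for H2-Oa. For the other 7 genes neighbouring cell types differed by less than 1 log2 unit on the brightest probe. Array intensities of different probes are not per length and were not compared between genes.

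Splenic CD4 T cells had 1 array per genotype, so that no test was made and values are from a normalization of all 27 arrays. H2-Ab1 was at 9.61 in WT and 10.60 in Mbd2-/-, H2-Aa at 8.77 and 9.22, H2-Eb1 at 8.56 and 10.11, and Cd74 at 9.63 and 11.17. H2-Oa stood at 7.68 and 9.99, and H2-Ob at 4.59 and 5.21, near background. Each of these was lower than on any cDC1 array in the same normalization. After it, the brightest probe of each of the 9 genes was higher on the Mbd2-/- array. The Mbd2-/- array was the dimmer before normalization (mean intensity 180 against 258). In raw intensity H2-Aa (498 in WT, 396 in Mbd2-/-) and H2-DMa (601 and 457) were lower on it, and the other genes were higher. The share of all probes that were higher there was not counted. Mouse T cells are not known for MHC class II transcription. In raw intensity, neutrophil markers summed to 21408 above the negative controls on the WT array and 2571 on the Mbd2-/- array, and B cell markers to 85.0 and 115. Ciita was at 4.93 and 5.06. The part of other cells in these values was not tested.

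Genes around the pathway were counted in lists, by the brightest probe. Between genotypes these counts stand beside the shares of all probes given above (2.36% for monocytes, 7.11% for macrophages, 8.65% for cDC1s). Of the genes in all lists, markers included, 111 of 115 were on the array. Ciita, the master coactivator, was at 8.97 and 9.28 in WT and Mbd2-/- monocytes, 8.90 and 8.87 in macrophages and 10.77 and 10.55 in cDC1s. It did not pass between genotypes (adjusted p = 0.617, 0.952 and 0.745). It was higher in cDC1s than in monocytes by 1.79 in WT (adjusted p = 1.48e-04) and 1.27 in Mbd2-/- (adjusted p = 8.27e-04). Of the regulators of class II transcription, 1 of 10 tested fell in Mbd2-/- monocytes and 1 of 9 in macrophages, in both cases Irf4 (-0.76 and -0.75, adjusted p = 0.0182 and 0.0139). In cDC1s 1 of 10 fell, Creb1 (-0.65), which did not pass with cyclic loess, with array weights, with cDC1s fitted alone, or without cDC1 array 23, 26, 28 or 30. Of endosomal proteases and their regulators, 0 of 10 passed in monocytes, 1 of 10 in macrophages (Ifi30, the reductase of antigen disulfides, 0.50) and 0 of 9 in cDC1s. Among trafficking genes, 1 of 8 fell in monocytes and in cDC1s (the tetraspanin Cd81, -0.89 and -0.75) and 0 of 8 in macrophages. In the interferon-gamma list Jak2, a receptor kinase, was 1 of 7 to fall in cDC1s (-0.94). Calls were also lost for Irf4 in monocytes without WT array 3 or Mbd2-/- array 10, for Irf4 in macrophages without arrays 12 and 20, for Ifi30 without macrophage array 12, 18, 19 or 20, for Cd81 in cDC1s without WT array 23 and for Jak2 without WT cDC1 array 26. A count of 1 in such lists is near the share of all probes in macrophages and cDC1s.

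Class I presentation genes, listed for comparison, included some that passed between genotypes, and whether they differed from the class II genes was not tested. In Mbd2-/- monocytes 4 of 10 rose (Tap1 0.89, Tap2 0.61, Psmb9 0.61 and Psmb10 0.59), with a median of 0.60 over the list. In macrophages 3 of 10 rose (Tap1 0.81, Psmb9 0.54 and H2-D1 0.44), with a median of 0.40, and in cDC1s 0 of 10, with a median of 0.24. The transporter genes Tap1 and Tap2 and the immunoproteasome subunits Psmb9 and Psmb10 are, like the classical class II chains, known to respond to interferon-gamma. With median scaling, with no filter on dim probes, or with each cell type fitted alone, 0 of 10 passed in monocytes and in macrophages. With the column sets as a block, 1 of 10 passed in monocytes. When 1 array was left out, the count ran from 0 to 4 in monocytes, 0 to 4 in macrophages and 0 to 2 in cDC1s. In monocytes Tap1 then lost its call in 4 of 10 fits, Psmb9 in 6, and Tap2 and Psmb10 in 8 each.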

How the data were processed

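Single-colour MouseWG-6 arrays of 27 samples were analysed, grouped by the cell type and genotype of the sample labels. The authors' table, a GenomeStudio export, gives for each probe and array an intensity (the average brightness of its beads) that was neither normalized nor background subtracted. Beside it they deposited a detection p-value and other columns with bead numbers and bead standard errors. The 3 signal columns of no sample were not used. The submitters' processing notes name lumi and limma, with no version. Sources differ on the number of mice pooled in a replicate and on the RNA kit. Genes and lists were chosen with earlier results of these data known.

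Background was corrected by normexp with 936 negative control probes (offset 16), and the 25 colon arrays were quantile normalized. One limma 3.58.1 model in R 4.3.3 (lmFit, contrasts.fit, eBayes) was fitted over 6 groups and tested two-sided, with Benjamini-Hochberg adjustment over all probes tested in a comparison. A probe entered a comparison if the number of its arrays with a detection p under 0.05 reached the size of the smaller group. A gene passed at an adjusted p under 0.05 by the probe that was brightest over the 25 arrays. The named genes are all 9 members, Ciita, and genes of the lists that passed between genotypes, of which some are not reported here. The procedure was tested on simulated data. Probe sequences were not analysed here.

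The number of arrays limits the precision. Alternatives were median scaling, cyclic loess, an offset of 50, leaving out the background correction, other filters and thresholds, array weights, any probe of a gene, the set of 6 columns as a block, 27 arrays normalized together, each cell type alone, and each array left out in turn. Leaving out macrophage arrays 12 and 20 together and estimating the negative controls' spread robustly were chosen after seeing the data.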

Additional observations from a re-analysis of the deposited data

Results flagged for a closer look

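Of 64 groups of 5 arrays tested over the 16 probes, 5 held an array whose gap to the others, divided by the range of the group, passed Dixon's critical value, where chance gives 3.2 (1 in 20 groups). WT macrophage array 12 was low on 3 probes. It was at 9.75 on the third probe of H2-Ab1, against 12.93 to 13.87 on the others, at 11.25 on the third probe of Cd74 (13.05 to 13.23) and at 10.76 on the bright probe of H2-DMb2 (11.89 to 12.07). Mbd2-/- macrophage array 18 was at 12.09 on the third probe of H2-Ab1 (13.49 to 14.02 on the others), and Mbd2-/- macrophage array 20 was at 13.78 on the brightest probe of Cd74 (13.88 to 13.91). On WT macrophage array 12 the brightest probes of H2-Ab1 and Cd74 did not stand apart.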

How the results depend on the processing

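H2-Oa and H2-Ob kept their direction and passed in cDC1s over monocytes and over macrophages, in both genotypes, under each alternative, at log2 differences of 2.03 to 4.00. By the brightest probes, no gene passed between genotypes, with the following exceptions. H2-DMa passed in cDC1s with cyclic loess (1). By an unadjusted p, 2 passed in monocytes and 1 in macrophages. H2-Ob passed in macrophages when 1 array was left out (0 to 1). Apart from the brightest probes, the second probe of H2-Oa passed in monocytes under 2 of 15 alternatives, the unadjusted p among them. No interaction passed under any alternative. The number of genes higher in WT macrophages than in monocytes, 4, became 2 with median scaling, no filter on dim probes, an adjusted p under 0.01 or without macrophage arrays 12 and 20, and 0 with a minimum fold change (a log2 change of at least 1). In Mbd2-/- it was 1, and became 2 with no background correction, an offset of 50 or cyclic loess, 3 with a stricter filter, array weights or any probe, 4 by an unadjusted p and 0 with the minimum fold change. The number higher in cDC1s than in monocytes, 4 in WT and 4 in Mbd2-/-, became 2 and 2 with median scaling or the minimum fold change, and 8 in Mbd2-/- with cyclic loess. Over Mbd2-/- macrophages 4 became 2 with median scaling, an adjusted p under 0.01 or the minimum fold change, and 8 with cyclic loess. With 1 array left out these counts ran from 2 to 4 in WT macrophages over monocytes (2 without WT monocyte array 1, 2 or 4, or WT macrophage array 11 or 14) and from 1 to 2 in Mbd2-/- (2 without Mbd2-/- monocyte array 6, 7, 8 or 10, or Mbd2-/- macrophage array 19). Those of cDC1s ran from 3 to 4 over monocytes and 2 to 3 over macrophages in WT, and from 4 to 5 and 3 to 4 in Mbd2-/-. Among differences with an unadjusted p under 0.05, 5 reversed, all with median scaling: the second probe of H2-Ab1 in WT cDC1s gave -0.11 over monocytes and -0.0099 over macrophages, that of H2-DMa gave -0.016 over WT and -0.16 over Mbd2-/- macrophages, and H2-DMb1 gave -0.20 in Mbd2-/- cDC1s over monocytes. Among member differences with a larger p, 68 of 1098 values changed sign over the alternatives and 97 of 884 with 1 array left out. Causes were not tested. The column set as a block could be fitted in 5 of 12 comparisons. No paired analysis was possible because the array numbers of the groups are not shared between genotypes.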

Other observations

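The mean of the brightest probes of H2-Aa, H2-Ab1, H2-Eb1 and Cd74 was set against 18241 other genes over the 25 colon arrays, as a description of arrays that share cell types, with no test. Among these genes themselves, H2-Ab1 and H2-Eb1 had a Pearson r of 0.54, and the other pairs had -0.05 to 0.15. The mean is therefore not a signal that all of them share. The highest Pearson r with that mean were B230369L08Rik at 0.86, LOC225134 at 0.82, LOC381365 at 0.80, LOC100039751 at 0.79 and 2310022K01Rik at 0.79. After group means were subtracted, they were B230369L08Rik at 0.78, Tkt at 0.75, LOC668387 at 0.75, LOC100048037 at 0.74 and Asf1b at 0.74. H2-DMa and H2-DMb1, partners in 1 form of H2-DM, had r of 0.74 over the 25 arrays and 0.67 after group means were subtracted. H2-DMa and H2-DMb2, partners in the other form, had 0.43 and 0.17. H2-DMb1 and H2-DMb2 had 0.05 and -0.09.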
